A study of Mus musculus with 2 samples.

Results

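Receptors for polarising cytokines are the surface chains through which a T cell reads the signals that steer helper T cell fates. The 10 chains described here are those for the interleukins IL-4, IL-6, IL-9, IL-12, IL-15, IL-21, IL-23 and IL-27. They were taken as the probes whose RefSeq accession belongs to Il4ra, Il6ra, Il6st, Il9r, Il12rb1, Il12rb2, Il15ra, Il21r, Il23r or Il27ra, a rule that uses no measured value, although the set was chosen with earlier results of these data known. This gave 10 genes and 16 probes, out of 22907 named genes and 56605 probes on the array.

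The RNA came from regulatory T cells (Tregs) sorted out of mouse kidney on day 28 after induction of cGN, an antibody-mediated kidney injury raised with an antibody (anti-GBM) to the membrane of the kidney's filters. Sorting was on CD45, CD3e, CD4 and the FoxP3-hCD2 reporter, a human CD2 marker on cells that use Foxp3. The labels give the anti-GBM antibody as M for array 2 and as I for array 1, and do not say what the letters stand for. They are called lot M and lot I here, with 1 array per lot. Lot is only a name used here for the letter, and the labels do not say that the antibodies were different lots. By the labels both groups had cGN induction and the same tissue, cell type and day, and differed in the letter of the anti-GBM antibody. Strain, age and the number of mice behind each array are not given in the sources used here, and neither is an uninjured or untreated control.

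The 2 lots cannot be assigned with certainty. The deposited value table holds the signals of array 1 under the label of lot M and those of array 2 under the label of lot I: over 13802 probes, the log2 ratio of the signal of array 2 to the column labelled lot I had an SD of 0.000158, against 0.181 for the column labelled lot M. The arrays are therefore called by number, in the order of their titles. Those titles number the arrays rep1 and rep2 of kidney Tregs after cGN induction, so the submitters name them as replicates, while the antibody labels differ. Each difference is array 2 minus array 1 on the log2 scale and describes these 2 arrays, with no replicate within a lot and no test. By the scanner files this is lot M over lot I, and by the value table the reverse.

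Cytokine receptors of this class have no enzyme of their own. A ligand joins 2 or 3 chains, the Janus kinases (JAKs) bound to them become active, and these phosphorylate STAT transcription factors that enter the nucleus. Chains are shared: the common gamma chain, Il2rg, serves IL-4, IL-9, IL-15 and IL-21, the chain gp130, Il6st, serves IL-6 and IL-27, and Il12rb1 serves both IL-12 and IL-23. In CD4 T cells IL-12 favours the type 1 fate, IL-4 the type 2 fate, and IL-6, IL-21 and IL-23 the type 17 fate, and IL-6 opposes the induction of Foxp3.

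Transcripts of all 10 receptor chains were detected on both arrays. Each of the 16 probes was flagged well above background on array 2 and on array 1, whereas 61.3% of the named probes and 60.0% of the named genes on the array were. No member probe was saturated. Levels are given as log2 of the signal over the 75th percentile of the array's probes, so 0 is the signal that 75% of the probes stay under. The detection floor, the lowest level among probes well above background, was -4.58 on array 2 and -4.62 on array 1. Levels of different probes also depend on their sequences, so each is read against the floor and against itself on the other array, not against another probe.

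**Figure D1:**
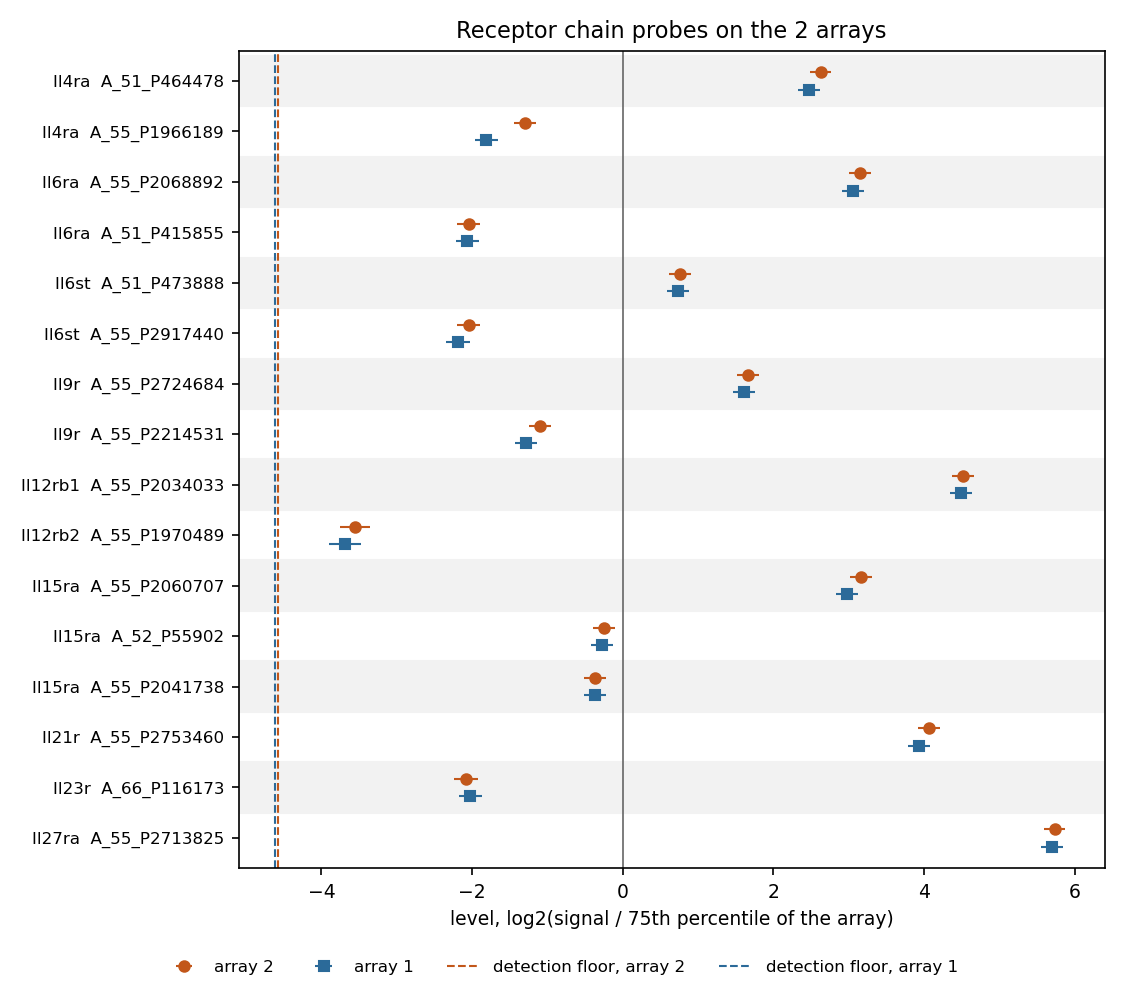
Level of each of the 16 probes of the 10 receptor chains on array 2 (circles) and array 1 (squares), as log2 of signal over the 75th percentile, with the scanner's error of the spot as bars and the detection floors as dashed lines. Every probe lies above both floors, Il12rb2 nearest to them, and the 2 arrays lie close together for each probe.

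The IL-12 and IL-23 receptors share Il12rb1, the chain that binds the subunit common to both cytokines. Its 1 probe reached 4.51 on array 2, against 4.49 on array 1. It was thus bright on both, 546 and 553 times the floor. The partner that completes the IL-12 receptor, Il12rb2, which docks STAT4 and is a mark of type 1 cells, was measured at -3.56 on array 2 and -3.69 on array 1. That is 2.03 and 1.90 times the floor, so its detection is close to the limit of the measurement, and it was the one member that a filter at 4 times the floor removed. The partner for IL-23, Il23r, a receptor of type 17 cells, stood at -2.08 on array 2 and at -2.03 on array 1, 5.63 and 6.03 times the floor. The differences were 0.02 ± 0.20 for Il12rb1, 0.13 ± 0.29 for Il12rb2 and -0.06 ± 0.22 for Il23r, none of them larger than its error. Here and below the error of a difference is that of the scanner's model for the spots, which covers neither mice nor lots.

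The gp130 family in this set consists of Il6ra, Il27ra and Il6st. Il27ra, the ligand-binding chain for IL-27, reached 5.73 on array 2, against 5.70 on array 1, about 1271 and 1278 times the floor, and differed by 0.03 ± 0.20. Il6ra, which binds IL-6 and has no signalling tail of its own, has 2 probes for the same accession. One was measured at 3.15 on array 2 and 3.06 on array 1, and the other at -2.05 on array 2 and -2.06 on array 1. Il6st, which carries the signal of both cytokines into the cell, also has 2 probes, at 0.76 on array 2 and 0.73 on array 1 and at -2.05 and -2.18. Averaged over probes, Il6ra differed by 0.05 ± 0.15 and Il6st by 0.08 ± 0.15. The arrays did not differ by more than the spot error for any of the 5 probes of this family.

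The receptors that pair with the common gamma chain had more probes and a somewhat wider range of differences. Il21r, the receptor for IL-21, stood at 4.07 on array 2 and at 3.94 on array 1, a difference of 0.14 ± 0.20. Il9r, the receptor for the mast cell and T cell growth factor IL-9, had 1 probe at 1.66 on array 2 and 1.61 on array 1 and another at -1.09 and -1.29. The gene differed by 0.12 ± 0.15.

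Il15ra, which holds IL-15 and presents it to the chains Il2rb and Il2rg, has 3 probes for 2 RefSeq transcripts. The brightest, for NM_133836, reached 3.16 on array 2, against 2.98 on array 1. The other probe of that transcript stood at -0.36 on array 2 and -0.37 on array 1, and the probe for NM_008358 at -0.24 and -0.27. All 3 differed by less than their errors, with 0.18 ± 0.20 for the brightest, and the gene by 0.07 ± 0.12.

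Il4ra, the chain through which IL-4 and IL-13 signal to STAT6, had the largest difference of the set. Its brighter probe was measured at 2.63 on array 2 and 2.47 on array 1, a difference of 0.16 ± 0.20 that lies within the spot error. Its dimmer probe, for the same accession, stood at -1.30 on array 2 and at -1.81 on array 1, 9.68 and 6.99 times the floor, a difference of 0.51 ± 0.21. The mean over both probes was 0.33 ± 0.15, a 1.26-fold higher signal on array 2, and without the dimmer probe 0.16. Of all genes measured on both arrays, 14.2% differed by at least as much as Il4ra.

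As a group the 10 chains differed little, as did most genes, and the counts past 2-fold and 1.5-fold do not set the chains apart. None reached 2-fold, where 1.43% of the 13740 genes measured on both arrays did, and none reached 1.5-fold, where 5.97% did. The difference was larger than the spot error in 1 of 10 chains, Il4ra, and in 28.6% of all genes. By probe this was 1 of 16, against 23.8% of the named probes measured on both arrays. The median size of the difference was 0.08 over the chains and 0.10 over all genes.

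**Figure D2:**
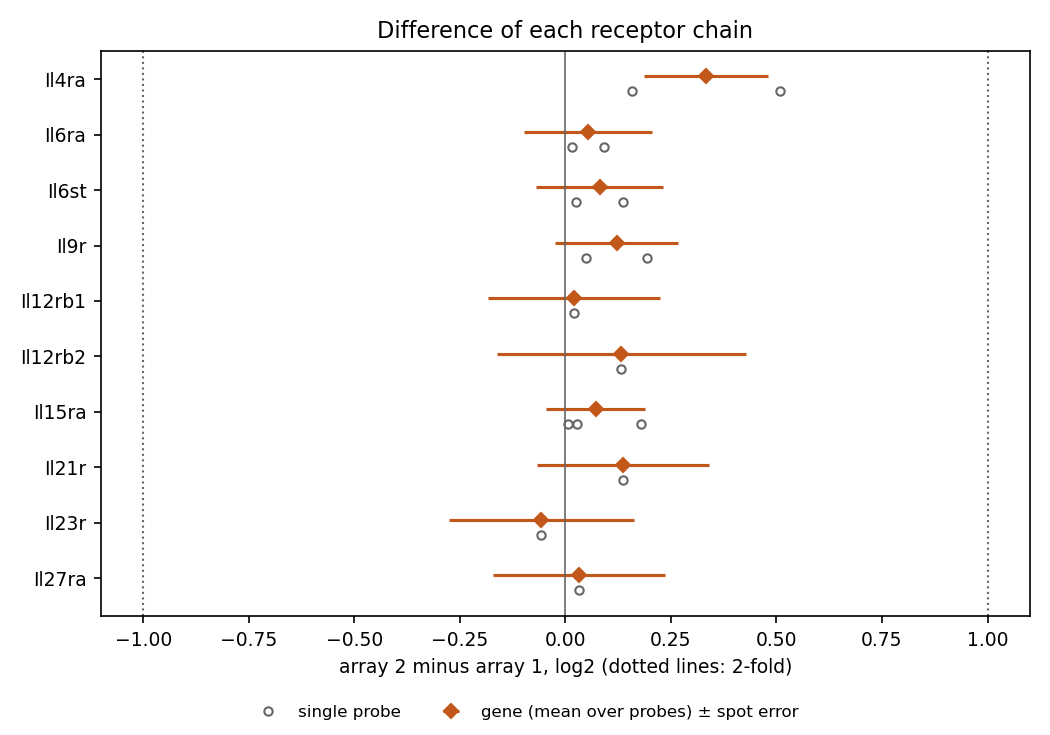
Difference of each receptor chain, array 2 minus array 1 in log2, with the gene as a diamond with the spot error as bar and its single probes as open circles below. Il4ra (0.33) is the only chain whose bar does not reach 0, and all chains lie well inside the dotted lines at 2-fold.

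The signs leaned one way, with a median difference near the uncertainty of the scaling. The signal was higher on array 2 for 9 of 10 chains and lower for 1, Il23r, where 53.8% of all genes were higher on array 2. The median difference was 0.08 over the chains and 0.01 over all genes. For the 5 chains with several probes, all probes of a chain had the same sign, as in 61.0% of all genes with several measured probes. With the spike-in controls as the scale, 6 chains were higher and 4 lower, among 37.9% of all genes higher. With quantile normalisation 7 were higher and 3 lower, among 50.9% of all genes. Without scaling 8 were higher and 2 lower, among 45.25% of all genes. The count stayed at 9 higher and 1 lower with the median of all genes as the scale, lowess centring or normexp background correction. The shares of all genes higher were then 50%, 51.6% and 57.0%. The 8 spike-in controls themselves, which should not differ, had a median difference of 0.06 (0.01 to 0.08). Differences of Il12rb1, Il27ra and Il6ra are smaller than this median, and these chains are the ones whose sign turned under another scale.

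The spread of all genes narrowed with level, which sets how each difference reads. Genes within 0.5 of the mean level of Il12rb2 had a median size of difference of 0.29, more than the 0.13 of Il12rb2. Genes within 0.5 of Il21r had a median of 0.06, less than its 0.14. For Il4ra the corresponding median was 0.10, against its own 0.33. The scanner's error model is wide beside repeat spots: 300 probes printed 10 times had a median SD of 0.03 on array 2 and 0.04 on array 1, but each receptor probe has 1 spot, and repeat spots leave out labelling and hybridisation.

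**Figure D3:**
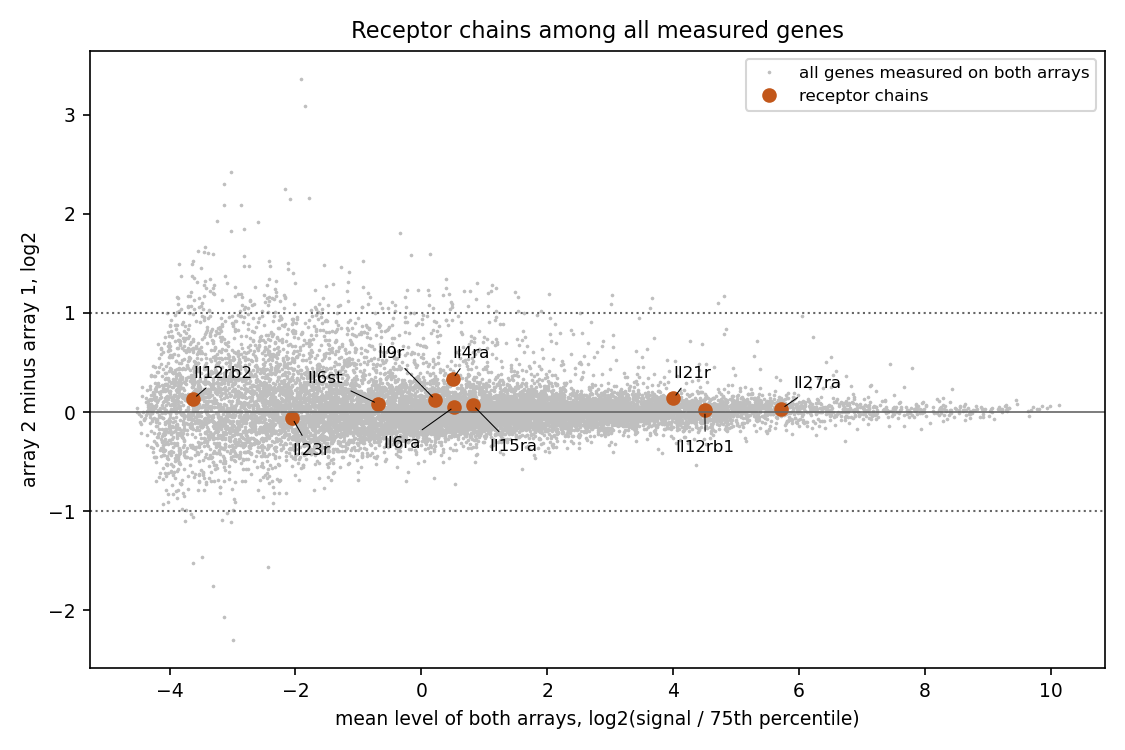
Difference (array 2 minus array 1, log2) against the mean level of both arrays for the 13740 genes measured on both (grey) and the 10 receptor chains (orange), with dotted lines at 2-fold. The chains lie well inside the 2-fold lines, and Il4ra is the highest of them at 0.33.

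The chains and kinases that the receptors work with were measured as well. The list for this was chosen with earlier results of these data known. All 3 partner chains were well above background on both arrays. Il2rg reached 6.83 on array 2, against 6.78 on array 1. Il2rb, the chain that joins Il15ra, had probes at 6.47 and 5.58 on array 2 and at 6.39 and 5.57 on array 1. These differed by 0.04 ± 0.20 and 0.05 ± 0.14. Il13ra1, the partner of Il4ra for IL-13 outside the T cell lineage, was measured at 0.07 on array 2 and -0.27 on array 1, a difference of 0.34 ± 0.20.

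All 4 Janus kinases were measured. Jak1 differed by 0.001 ± 0.20, Jak3, which binds the common gamma chain, by 0.04 ± 0.14, and Tyk2, which binds Il12rb1, by -0.05 ± 0.20. Jak2, the kinase of Il12rb2 and Il23r, was lower on array 2 on both probes, with levels of 3.53 and -0.40 on array 2 and 3.63 and -0.03 on array 1, and a mean difference of -0.23 ± 0.14.

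The STAT genes named here were also well above background on array 2 and on array 1. Stat4, which IL-12 activates, differed by 0.02 ± 0.20, Stat6, which IL-4 activates, by 0.06 ± 0.20, and Stat3, which IL-6, IL-21 and IL-23 activate, by 0.10 ± 0.14. Stat5a and Stat5b, which IL-15 and IL-9 activate, differed by -0.03 ± 0.14 and 0.10 ± 0.20, and Stat2 by 0.14 ± 0.15 with probes of opposite sign. None of these partner chains, kinases or STAT genes reached 2-fold.

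Feedback inhibitors of these receptors were measured in 12 of 12 cases, with 4 higher and 8 lower on array 2, none by 2-fold and a median difference of -0.03. The largest differences were -0.29 ± 0.14 for Socs2, 0.23 ± 0.20 for Socs3, which blocks gp130, -0.14 ± 0.15 for Socs6 and -0.13 ± 0.14 for Ptpn2, a phosphatase of JAKs and STATs. Socs1 differed by 0.07 ± 0.20 and Cish, a target of STAT5, by 0.08 ± 0.20.

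Of 11 ligand genes, 7 were well above background on both arrays and 4 on neither. Il9, the subunit genes Il12a and Il12b of IL-12, and Il23a of IL-23 were not well above background, while the chains of the IL-12 and IL-23 receptors were. For IL-27 both subunit genes were detected. Ebi3, which also serves IL-35, stood at 5.07 on array 2 and at 5.09 on array 1, and Il27 stood at -1.88 on array 2 and at -2.24 on array 1, a difference of 0.35 ± 0.22.

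The largest difference among the ligands was that of Il6. Its probes had levels of -0.70 and -1.61 on array 2, against -1.38 and -2.58 on array 1. Both were higher on array 2, and the gene differed by 0.82 ± 0.15, short of 2-fold, while its receptor chains Il6ra and Il6st differed by 0.05 and 0.08. Il27, above, also differed by more than its error. The differences of the remaining ligands with a value were within theirs, at -0.09 ± 0.20 for Il4, 0.08 ± 0.35 for the dim Il13, -0.04 ± 0.15 for Il15 and 0.14 ± 0.23 for Il21, the last from 1 of its 2 probes.

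**Figure D4:**
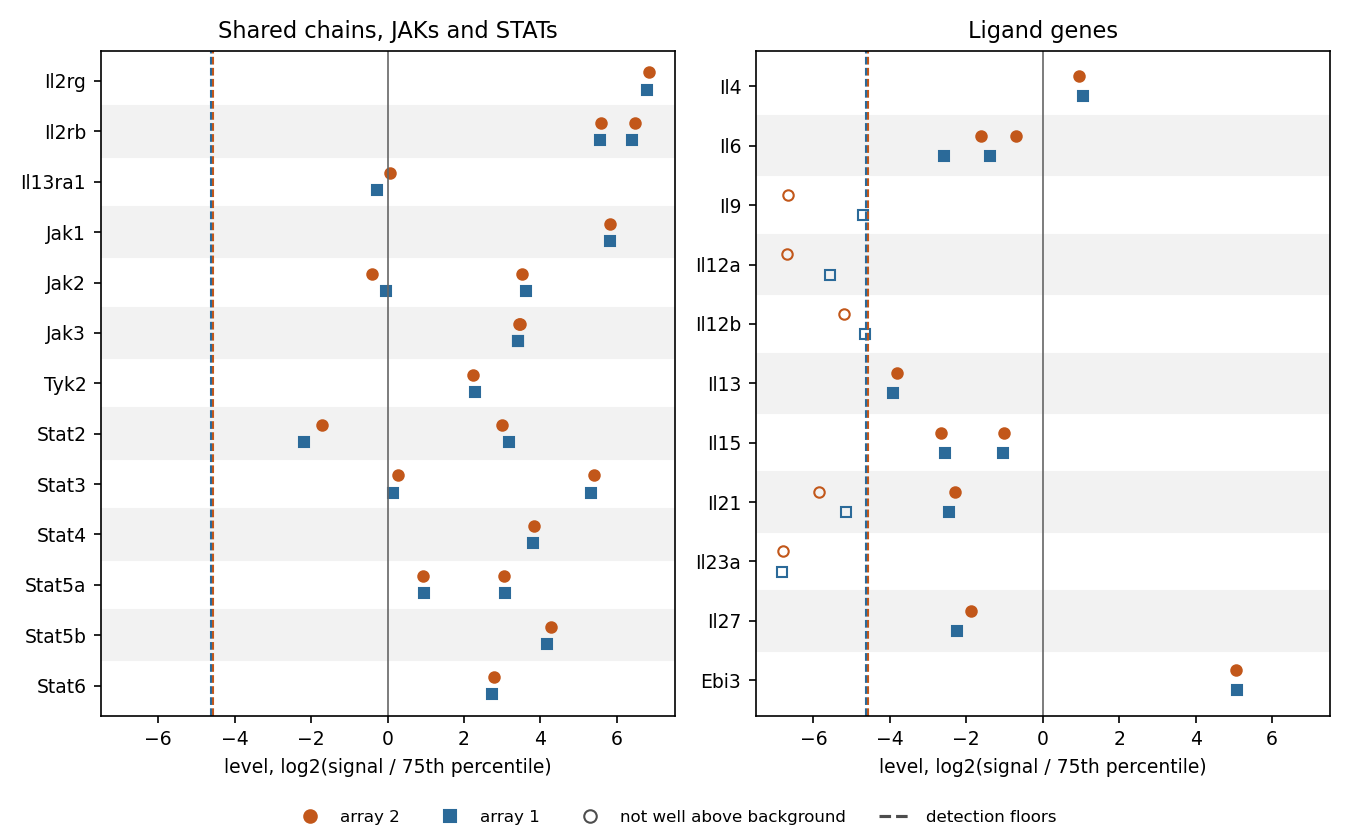
Levels of the probes of the shared chains, Janus kinases and STAT factors (left) and of the ligand genes (right) on array 2 (circles) and array 1 (squares), as log2 of signal over the 75th percentile, with open symbols for probes not well above background and dashed lines at the detection floors. Il9, Il12a, Il12b and Il23a have only open symbols, and both Il6 probes lie higher on array 2.

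A broader list of 33 other cytokine receptor genes serves as a comparison. Of these, 24 were measured on both arrays, 16 higher and 8 lower on array 2, with a median difference of 0.07 and none at 2-fold. The largest were 0.82 ± 0.27 for the erythropoietin receptor Epor, from 1 of its 2 probes, and 0.79 ± 0.14 for the growth hormone receptor Ghr. Next were 0.50 ± 0.20 for Il7r, which sustains resting T cells, and 0.38 ± 0.20 for Il11ra1. Il7r reached 6.67 on array 2, against 6.17 on array 1.

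Lineage factors downstream of the polarising cytokines were measured in 15 of 17 cases, the exceptions being Il17a and Il22, neither of them well above background. Of these, 8 were higher and 7 lower on array 2. Gata3, the type 2 factor which the study's title names, stood at 7.34 on array 2 and 7.32 on array 1. Eomes, a T-box factor of cytotoxic cells, was the one gene past 2-fold, at 1.19 ± 0.26 from 1 of its 2 probes. Its level was dim, at -2.27 on array 2 and -3.47 on array 1. Il10 (-0.31 ± 0.20), Tbx21 (-0.28 ± 0.20) and Rora (-0.26 ± 0.14) followed in size.

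Which cells the receptor transcripts came from was not determined, and in bulk RNA fewer cells of a type and less RNA per cell cannot be told apart. Markers of the labelled cells were present: each of the 7 Treg markers was detected on array 2 and on array 1. Their median difference was -0.04, and they had a summed level of 717 on array 2 and 738 on array 1, in units of the 75th percentile. Foxp3, whose reporter was used for sorting, stood at 4.74 on array 2 and 4.92 on array 1, a difference of -0.17 ± 0.20. The 7 T cell markers that were matched summed to 1267 on array 2 and 1274 on array 1, with a median difference of -0.02.

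Markers of other cells were detected too, some of which also use Il4ra, Il6ra, Il6st and Il15ra. All 8 macrophage and monocyte markers were measured and higher on array 2, with a median of 0.31 and summed levels of 148 on array 2 and 130 on array 1. Most of that sum was Ly6c2 (levels 6.84 and 6.70), which T cells can also express. All 6 proximal tubule markers were higher on array 2, with a median of 1.19 and summed levels of 127 on array 2 and 62.7 on array 1. So were all 5 distal nephron markers, with a median of 0.75 and sums of 120 on array 2 and 89.2 on array 1. Most of the proximal tubule sum was Kap (levels 6.54 on array 2 and 5.57 on array 1). Umod (6.79 on array 2 and 6.37 on array 1) made up most of the distal nephron sum.

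For the other lists, each sum covers the genes measured on both arrays and is read only against itself on the other array. Sums were 18.8 on array 2 and 16.4 on array 1 for CD8 T and natural killer cells (5 of 6 measured), 10.3 and 7.91 for neutrophils (3 of 4), 5.12 and 6.28 for B cells (4 of 4), 3.51 and 3.75 for dendritic cells (4 of 5), 1.20 and 1.22 for endothelium (4 of 4), and 0.11 and 0.088 for fibroblasts and mesangial cells (1 of 4, Col1a1). No podocyte marker of 3 was well above background on either array. The part of these cells in the levels or differences of the receptor chains was not tested.

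Sequence upstream of the receptor genes was available for 8 of 10 members as 9 windows of 300 bases, from 250 before to 50 after a start of transcription, from RefSeq on GRCm38.p6. Il12rb1 and Il27ra are named only. Of these, 3 windows are shown because they belong to the chains with the largest difference (Il4ra), the level nearest the floor (Il12rb2) and the most matches to the GATA motif (Il9r). Capitals mark matches on either strand to AGATAA, letters that GATA factors such as Gata3 prefer, or to TTCNNNGAA, a STAT motif. The coordinates are chr7:125552021-125552320 on the plus strand for Il4ra, chr6:67376139-67376438 on the minus strand for Il12rb2 and chr11:32200230-32200529 on the minus strand for Il9r, each written 5′ to 3′ along the gene.
Il4ra: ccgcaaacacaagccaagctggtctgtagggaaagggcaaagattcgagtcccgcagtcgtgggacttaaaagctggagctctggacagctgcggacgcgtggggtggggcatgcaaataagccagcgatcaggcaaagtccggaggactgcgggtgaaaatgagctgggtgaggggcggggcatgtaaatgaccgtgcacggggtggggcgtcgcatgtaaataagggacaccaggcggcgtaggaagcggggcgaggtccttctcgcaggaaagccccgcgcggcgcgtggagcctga
Il12rb2: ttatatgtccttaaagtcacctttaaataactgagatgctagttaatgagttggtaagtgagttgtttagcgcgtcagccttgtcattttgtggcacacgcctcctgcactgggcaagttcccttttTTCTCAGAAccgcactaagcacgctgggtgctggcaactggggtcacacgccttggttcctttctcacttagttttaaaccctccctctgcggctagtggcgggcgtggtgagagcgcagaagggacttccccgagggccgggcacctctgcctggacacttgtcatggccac
Il9r: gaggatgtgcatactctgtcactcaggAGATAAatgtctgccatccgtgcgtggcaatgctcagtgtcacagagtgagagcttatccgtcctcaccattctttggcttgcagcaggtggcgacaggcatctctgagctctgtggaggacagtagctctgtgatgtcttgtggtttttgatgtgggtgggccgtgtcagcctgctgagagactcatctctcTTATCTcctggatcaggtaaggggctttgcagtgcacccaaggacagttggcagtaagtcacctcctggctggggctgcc

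The Il9r window holds 2 GATA matches, 1 on each strand, the Il12rb2 window 1 STAT match, and the Il4ra window neither motif. Over the 9 windows of the members, 2 held AGATAA (Il6ra and Il9r), beside 11.2% of all 32851 windows, and 1 held TTCNNNGAA, beside 8.30% of all. No matches overlap, and a match is a run of letters and not a measured binding site.

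By order in the RefSeq annotation, Il4ra and Il21r lie next to each other with 0 annotated genes between their starts, and Il12rb2 and Il23r have 4 annotated genes between them, 0 of them protein-coding. Il4ra differed by 0.33 ± 0.15 and Il21r by 0.14 ± 0.20. Il12rb2 differed by 0.13 ± 0.29 and Il23r by -0.06 ± 0.22. In both pairs the errors overlap.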

How the data were processed

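Cy3-labelled total RNA of the sorted cells was read on 2 Agilent mouse arrays of 1 colour. Per the submitters' processing notes and the file headers, spots were read with Agilent Feature Extraction 10.7.1.1. The deposited scanner output gives a processed intensity per spot, corrected for background within the array and not between arrays, its error, and flags with other values of 0 or 1. The deposited value table holds a linear ratio, the intensity over 1 constant per array, as found by comparison, and no label or header says how it was made. Control spots (3671 of 62976) and outlier spots (56 on array 2, 75 on array 1) were left out. The processed intensity was log2-transformed and the 75th percentile over probes subtracted. Accessions were matched to RefSeq symbols (32989 of 56605 probes; GRCm38.p6, used for names and gene order, since the file headers name an older build). A gene's difference is averaged over the probes that were well above background on both. No test was run, because each lot has 1 array, and precision is limited by that number. Array 2 was marked for evaluation by the scanner's quality summary, its spike-in detection limit being outside the range.

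The members, lists and alternatives were chosen with earlier results of these data known. All 10 chains, partner chains, kinases, STAT genes and ligands are named, except 1 gene that is not reported here, and up to 4 genes with the largest differences of the other lists. Gata3, Foxp3, Socs1, Cish, Ly6c2, Il17a and Il22 are named beyond that rule, after their values were seen. Motifs were chosen after the data were seen. Alternatives were normexp background correction (limma 3.58.1, offset 50, on the median signals, the ones the files hold), other scalings (for the spike-ins the median of their differences, a form chosen after values were seen), quantile normalisation, lowess centring (span 0.3), other filters on dim probes, outlier spots kept, the brightest probe, the value table, another detection flag and fold limits of 1.5 and 4. The calculation was tested on simulated data with changes larger than that of any receptor chain, so this test does not bear on differences of their size.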

Additional observations from a re-analysis of the deposited data

How the results depend on the processing

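No chain reached 2-fold under any of the 11 alternatives tried for the differences, nor 1.5-fold with the main processing, and the largest size was 0.34, for Il4ra with lowess centring. Some alternatives could not move a chain past its error. Keeping outlier spots or dim probes gave the main value for every chain, as did the stricter filter for the 9 chains it left. The brightest probe did so for chains with 1 probe. A constant change of scale shifted all chains alike, by at most 0.06, below the smallest error of 0.12. Of 109 values of single chains under all 11 alternatives, 103 stayed within the spot error of the main value, a count that is therefore no measure of robustness. The other 6 were Il4ra with the brightest probe (0.16) and, from the value table by its labels, Il4ra (-0.33), Il21r (-0.14), Il9r (-0.12), Il6st (-0.09) and Il15ra (-0.07), whose signs turn because that table has the arrays under the opposite lots. By those labels 1 chain was higher and 9 lower, with a median of -0.08. Under the others the median lay between 0.02 (spike-ins) and 0.08. Apart from that table, the sign of Il12rb1 turned to as low as -0.04, that of Il27ra to -0.03 and that of Il6ra to -0.003, each at its lowest with spike-ins. The direction of these chains is thus not settled, although the 9 chains counted as higher with the main processing include them. All 10 chains were detected under each alternative except the filter at 4 times the floor, which left 9 by removing Il12rb2. Genes past 2-fold numbered 196, against 28 with normexp, 85 with the stricter filter and 1047 with no filter on dim probes. No paired analysis was possible because each lot has 1 array.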
